A study of Mus musculus with 6 samples.

Results

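The Schlafen features of chromosome 11 are 6 long non-coding RNA (lncRNA) transcripts of NONCODE, a catalogue of non-coding RNAs, that the deposited table lists between positions 83011479 and 83083886, inside the mouse Schlafen gene cluster. They are NONMMUT084037.1, NONMMUT011098.2, NONMMUT011099.2, NONMMUT084040.1, NONMMUT084041.1 and NONMMUT085560.1, 6 of the 24817 features of the table. They were chosen for this position and for their lower counts in 1 comparison, so the differences between groups are given for them as a description, with no p-value, and the number of them that a test over the whole table calls is read as no result. RNA was sequenced from RAW264.7 cells, a mouse macrophage-like line that grows in culture, in 6 libraries. All the cells had received lipopolysaccharide (LPS), a bacterial cell-wall component that activates macrophages, for 24 h, after which the medium was replaced by one extracted from bone cement made of polymethyl methacrylate (PMMA). In the 3 LPS_ES_PMMA libraries the cement carried enoxaparin sodium, an anticoagulant of the heparin class, and in the 3 LPS_PMMA libraries it did not, with ES read as the enoxaparin sodium of the series title. The titles and treatment labels call the controls LPS_PMMA, whereas their descriptions and the table's columns name LPS alone. The labels do not give the time in extract. They do not say either whether replicates are separate cultures, so any p-value measures a spread that may be technical.

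Schlafen genes encode a family of vertebrate proteins named for the slowed growth of mouse thymocytes that overexpress Slfn1. Slfn1 and Slfn2 are short members, Slfn3 and Slfn4 are of intermediate size, and Slfn5, Slfn8, Slfn9 and Slfn14 are long members with a helicase-like domain. Several of the genes are induced in macrophages by LPS and by type I interferon, Slfn4 in particular in myeloid cells, and loss of Slfn2 function disturbs the quiescence of T cells in mice. An antisense lncRNA is transcribed from the strand opposite a gene, but without strand its reads and those of the gene cannot be told apart, and the strand setting of the counting was not stated.

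In the GENCODE M21 annotation of GRCm38, the assembly also called mm10 and the build named in the submitters' processing notes, the listed order along the chromosome is Slfn5, Slfn9, Slfn8, the pseudogene Slfn10-ps, Slfn2, Slfn1, Slfn4, Slfn3 and Slfn14. The transcript sequences of the 6 features were not used here. Shown in their place is the stretch of Slfn8 that NONMMUT084037.1 overlaps as listed. Also shown are the promoters of 4 genes that the listed or the displaced positions described below tie to the 6 features. The promoter of Slfn3, of which the displaced interval of NONMMUT085560.1 reaches 79 exonic bases, is left out. The Slfn8 stretch is exonic and coding over all its 135 bases, is read from GENCODE M21 on the strand of Slfn8, and has no part in capitals.
Slfn8 exon, chr11:83013365-83013499, minus strand: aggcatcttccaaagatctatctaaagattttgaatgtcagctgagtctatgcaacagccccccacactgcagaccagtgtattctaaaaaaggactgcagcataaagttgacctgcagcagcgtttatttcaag

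The promoters are those of RefSeq on GRCm38.p6 and run from 250 bases before to 50 bases after the gene's start, 5′ to 3′ on the strand of the gene. Capitals mark 2 copies of GAAA with any 2 bases between them, or the reverse complement, a core of the element through which interferon-activated factors bind.
Slfn8 promoter, chr11:83020761-83021060, minus strand: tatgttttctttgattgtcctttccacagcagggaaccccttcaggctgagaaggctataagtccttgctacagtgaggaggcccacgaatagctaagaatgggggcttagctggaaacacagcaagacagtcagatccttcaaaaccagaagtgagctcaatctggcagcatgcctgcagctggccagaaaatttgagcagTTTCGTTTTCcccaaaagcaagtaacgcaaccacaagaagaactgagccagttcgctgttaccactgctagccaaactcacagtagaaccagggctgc
Slfn2 promoter, chr11:83064862-83065161, plus strand: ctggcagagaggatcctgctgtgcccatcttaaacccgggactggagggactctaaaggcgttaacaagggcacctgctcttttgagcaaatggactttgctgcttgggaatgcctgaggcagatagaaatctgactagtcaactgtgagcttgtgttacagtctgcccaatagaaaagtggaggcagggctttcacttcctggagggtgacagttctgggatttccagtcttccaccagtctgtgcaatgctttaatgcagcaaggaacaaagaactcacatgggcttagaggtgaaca
Slfn1 promoter, chr11:83116570-83116869, plus strand: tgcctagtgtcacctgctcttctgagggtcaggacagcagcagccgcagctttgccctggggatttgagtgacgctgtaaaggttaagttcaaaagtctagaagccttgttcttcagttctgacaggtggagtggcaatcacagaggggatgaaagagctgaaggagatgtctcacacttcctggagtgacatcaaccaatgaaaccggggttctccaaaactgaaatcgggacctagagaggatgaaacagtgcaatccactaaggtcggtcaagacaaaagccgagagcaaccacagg
Slfn4 promoter, chr11:83174936-83175235, plus strand: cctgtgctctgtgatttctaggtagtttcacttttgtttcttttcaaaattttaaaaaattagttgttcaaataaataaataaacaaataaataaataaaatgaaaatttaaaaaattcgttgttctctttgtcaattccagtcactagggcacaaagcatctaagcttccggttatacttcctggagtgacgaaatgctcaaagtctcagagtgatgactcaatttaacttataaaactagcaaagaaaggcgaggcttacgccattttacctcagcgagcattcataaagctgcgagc

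This motif was searched on both strands, and no other motif was searched. It was found in 1131 of 32851 mouse promoters of this length (3.44%), and among the 8 Schlafen genes with a promoter in the RefSeq table in those of Slfn5, Slfn8 and Slfn9. In the Slfn8 promoter shown, it begins 48 bases before the start. The windows of Slfn2, Slfn1, Slfn4, Slfn3 and Slfn14 do not hold these letters, which says nothing of other positions. A match is a description of the sequence and not a measured binding site.

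Depth differed between the libraries. The counts over all features totalled 3261653, 1123551 and 3070657 in the LPS_ES_PMMA libraries 1, 2 and 3, against 3697638, 3249485 and 2877523 in the LPS_PMMA libraries 1, 2 and 3, so that LPS_ES_PMMA 2 had the fewest. Counts were scaled by TMM, a trimmed mean of ratios between libraries, and are given as CPM, counts per 1000000 of the scaled total. The TMM factors ran from 0.559 in LPS_PMMA 1 to 1.82 in LPS_ES_PMMA 2. A count of 0 allows up to 3 counts, which are 0.729 to 1.52 CPM in LPS_ES_PMMA libraries and 1.08 to 1.47 CPM in LPS_PMMA libraries, for counting error only. The table lists lncRNAs, so the label macrophage could be read for 1 of 7 identity genes: 2 features tied to Adgre1, the gene of F4/80, summed to 33.4 to 45.5 CPM in LPS_ES_PMMA and 50.2 to 62.2 CPM in LPS_PMMA. Cd68, Csf1r, Itgam, Lyz2, Mpeg1 and Spi1 had no feature. Of 12 genes of T cells, B cells, fibroblasts and osteoblasts, 3 (Cd3e, Cd8a and Pdgfra) had features, 5 in number, which summed to 19.8 to 34.2 CPM in LPS_ES_PMMA and 11.8 to 13.0 CPM in LPS_PMMA. Most of that sum was NONMMUT057375.2, tied to Cd8a, and most of the Adgre1 sum was MSTRG.25685.1, a transcript assembled from reads. The part of these differences in the results below was not tested. The ties of these features to genes rest on the listed positions, which were checked against gene models on chromosome 11 only. In RNA from whole cultures, fewer cells of a type and less RNA per cell cannot be told apart.

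All 6 features were lower in every LPS_ES_PMMA library than in any LPS_PMMA library, which held for 14.6% of the 8873 features that passed the filter on low counts. All 6 passed that filter. By the edgeR quasi-likelihood test with Benjamini-Hochberg adjustment over those 8873 features, all 6 were called lower at an adjusted p under 0.05, as were 2.58% of the features, while 2.18% were called higher and 4.76% in either direction. Since the members were taken from this comparison, nothing is read from either count. The median log2 fold change of the 6 features was -3.12, and that of all tested features was 0.03. The plot of all tested features shows that 2 of the 6 are among the abundant features of the table and 3 among the sparse ones.

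**Figure D1:**
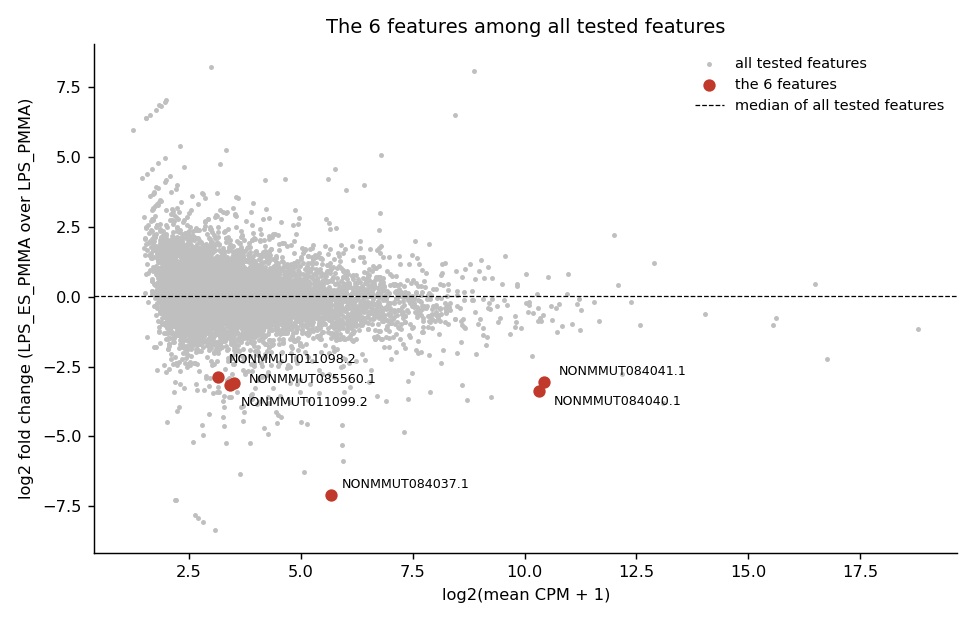
Log2 fold change (LPS_ES_PMMA over LPS_PMMA) against log2(mean CPM + 1) for the 8873 tested features (grey), with the 6 Schlafen features in red and the median of all features as a dashed line. The 6 features lie between -7.11 and -2.89, against a median of 0.03 for all tested features.

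NONMMUT084037.1 is listed at 83011479 to 83013585 with a transcript length of 1201 nt, as antisense to an exon of Slfn8. It held 0, 0 and 6 reads in LPS_ES_PMMA 1, 2 and 3, against 198, 311 and 220 reads in LPS_PMMA 1, 2 and 3. All reads of the LPS_ES_PMMA group came from 1 library, and the groups did not overlap. It averaged 0.674 ± 1.17 CPM in LPS_ES_PMMA and 99.7 ± 21.6 CPM in LPS_PMMA (SD, n = 3 each). Its log2 fold change was -7.11 (SE 0.95), the largest fall of the 6. With all libraries the level was 138-fold lower, and the lowest LPS_PMMA library was 39.3 times the highest LPS_ES_PMMA library. Without LPS_ES_PMMA 3 the group held no reads. With the LPS_PMMA counts taken as observed, the level was then at least 202-fold lower, computed against 3 counts over the remaining LPS_ES_PMMA libraries. This bound leaves out the library that held the reads and does not hold for the whole group. Without LPS_ES_PMMA 1 the log2 fold change was -6.39.

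NONMMUT084040.1 (83077556 to 83079104, 1549 nt) and NONMMUT084041.1 (83079198 to 83081142, 1945 nt) are unspliced, lie next to each other, and are listed as intergenic, 6878 and 8520 bp from Slfn2. NONMMUT084040.1 held 848, 432 and 761 reads in the LPS_ES_PMMA libraries, against 4186, 6586 and 6570 in the LPS_PMMA libraries. NONMMUT084041.1 held 1465, 469 and 888 reads in the LPS_ES_PMMA libraries, against 3927, 7036 and 7521 in the LPS_PMMA libraries. Both features remained well above the sampling floor in each LPS_ES_PMMA library, unlike NONMMUT084037.1. In CPM, NONMMUT084040.1 averaged 227 ± 26.2 in LPS_ES_PMMA and 2341 ± 268 in LPS_PMMA (SD, n = 3 each), and its log2 fold change was -3.37 (SE 0.27). NONMMUT084041.1 averaged 297 ± 59.1 CPM in LPS_ES_PMMA and 2472 ± 469 CPM in LPS_PMMA, with a log2 fold change of -3.05 (SE 0.31). The lowest LPS_PMMA library was 8.03 times the highest LPS_ES_PMMA library for NONMMUT084040.1, and 5.43 times for NONMMUT084041.1.

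The 3 sparse features were lower by factors of similar size. NONMMUT011098.2 (83066535 to 83067268, 734 nt), listed as antisense in an intron of Slfn2, held 8, 2 and 7 reads in the LPS_ES_PMMA libraries, against 47, 26 and 24 in the LPS_PMMA libraries. NONMMUT011099.2 (83073452 to 83077134, 3683 nt), listed as intergenic and 2774 bp from Slfn2, held 10, 3 and 5 reads in the LPS_ES_PMMA libraries, against 39, 53 and 35 in the LPS_PMMA libraries. NONMMUT085560.1 (83079198 to 83083886, 1692 nt after splicing) held 10, 3 and 7 reads in the LPS_ES_PMMA libraries, against 39, 61 and 36 in the LPS_PMMA libraries. Each had its fewest reads in LPS_ES_PMMA 2, the shallowest library, and was lowest there in CPM as well (1.01, 1.52 and 1.52 CPM in the order above). None of the 3 overlapped between groups. NONMMUT085560.1 has the same listed start as NONMMUT084041.1 and spans it, so reads may be shared between them. The log2 fold changes were -2.89 (SE 0.53) for NONMMUT011098.2, -3.15 (SE 0.38) for NONMMUT011099.2 and -3.09 (SE 0.38) for NONMMUT085560.1. In LPS_PMMA, NONMMUT011098.2 was the most uneven of the 6 features, with 23.1, 10.2 and 8.67 CPM in LPS_PMMA 1, 2 and 3, a ratio of 2.67 between the highest and the lowest. The 5 features other than NONMMUT084037.1 thus had log2 fold changes between -3.37 and -2.89, and differences between them were not tested.

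**Figure D2:**
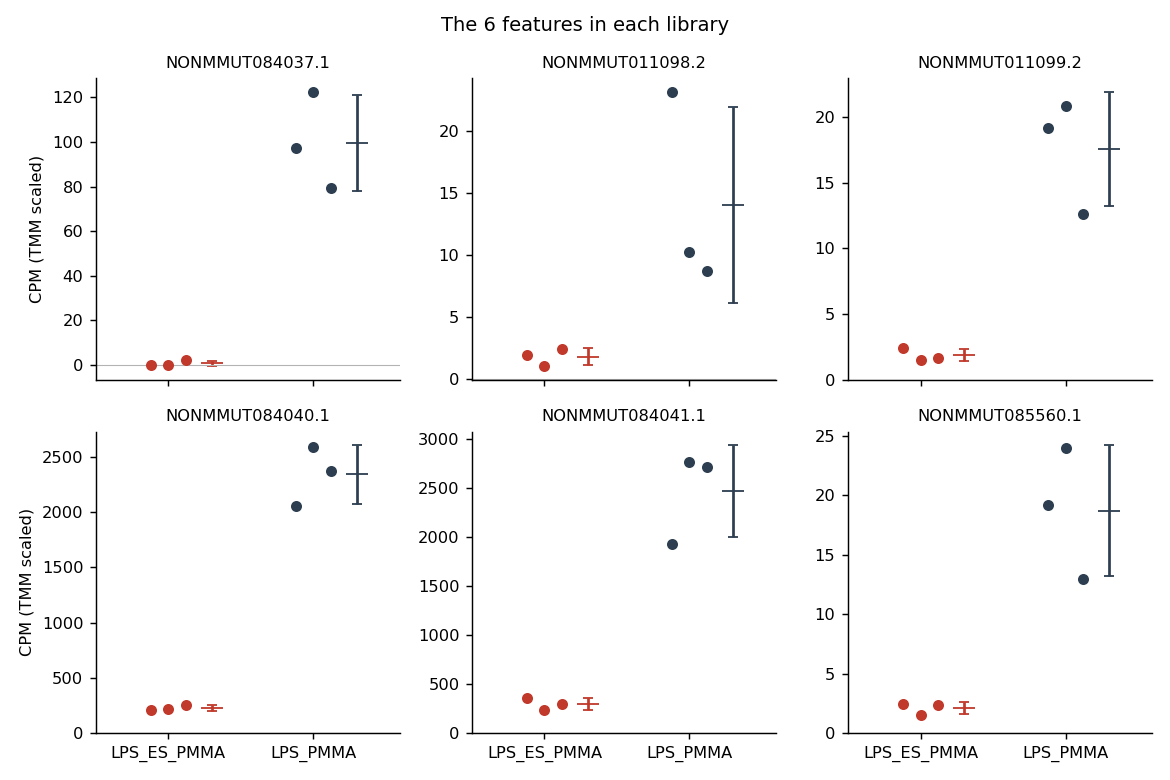
CPM (TMM scaled) of the 6 features in each library, LPS_ES_PMMA in red and LPS_PMMA in dark blue, with 1 point per library in the order of replicates 1 to 3 and the mean ± SD (n = 3) beside the points; the scale differs between panels. Every LPS_ES_PMMA point lies below every LPS_PMMA point, and NONMMUT084037.1 is at 0 in LPS_ES_PMMA 1 and 2.

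Levels of different transcripts were compared as the authors' FPKM, fragments per kilobase of transcript scaled to depth. NONMMUT084040.1 had 122, 113 and 114 FPKM in the LPS_ES_PMMA libraries, against 604, 1025 and 1095 FPKM in the LPS_PMMA libraries. NONMMUT084041.1 had 167, 97.3 and 106 FPKM in the LPS_ES_PMMA libraries, against 451, 872 and 998 FPKM in the LPS_PMMA libraries. These were the highest of the 6 in every library. Their FPKM ratio, NONMMUT084040.1 over NONMMUT084041.1, was 0.727, 1.16 and 1.08 in the LPS_ES_PMMA libraries, against 1.34, 1.18 and 1.10 in the LPS_PMMA libraries. NONMMUT084040.1 was thus the higher of these per length in 2 of 3 LPS_ES_PMMA libraries, where the ratio had an SD of 0.228, and in every LPS_PMMA library, where it had an SD of 0.123. NONMMUT084037.1 came next in LPS_PMMA, with 36.8, 62.4 and 47.3 FPKM, while in LPS_ES_PMMA it had 0, 0 and 1.16 FPKM and was last in LPS_ES_PMMA 1 and 2. NONMMUT011098.2 averaged 1.91 ± 0.711 FPKM in LPS_ES_PMMA and 10.4 ± 3.36 FPKM in LPS_PMMA, and NONMMUT085560.1 averaged 0.997 ± 0.301 and 6.44 ± 1.95 FPKM in these groups. NONMMUT011099.2 was the lowest in LPS_PMMA, at 2.76 ± 0.613 FPKM, and averaged 0.416 ± 0.163 FPKM in LPS_ES_PMMA. In the authors' deposited table, the log2 fold changes of the 6 features, which are ratios of mean FPKM, run from -6.98 for NONMMUT084037.1 to -2.45 for NONMMUT011098.2.

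Because overlapping features can share reads, the 6 were also summed. The sum was 2341, 909 and 1674 reads in the LPS_ES_PMMA libraries, against 8436, 14073 and 14406 in the LPS_PMMA libraries. NONMMUT084040.1 and NONMMUT084041.1 made up between 96.2% and 99.1% of it in each library, so the sum describes these more than the sparse features. It came to 531 ± 61.1 CPM in LPS_ES_PMMA and 4962 ± 726 CPM in LPS_PMMA (SD, n = 3 each), a log2 ratio of -3.22. Of all counts of a library, it took 0.0545% to 0.0809% in LPS_ES_PMMA and 0.228% to 0.501% in LPS_PMMA. The log2 ratio was -2.47 on column totals without factors and -2.82 on library totals implied by FPKM. On those scales the median of all tested features was 0.82 and 0.46, so that relative to it the median of the 6 features was between -3.19 and -3.12 under TMM, column totals and FPKM-implied totals.

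The listed positions were checked against GENCODE M21. Overlaps count the exonic bases of a gene under the whole interval of a feature, introns of the feature included. For a spliced feature they can thus exceed the transcript length. As listed, 1 of the 6 features overlaps an exon of a gene of the annotation, NONMMUT084037.1 over the 135 bases of Slfn8 shown above, out of an interval of 2107. The table also holds transcripts named MSTRG, the name that the program StringTie gives to transcripts it assembles from reads. Of 173 such intervals on chromosome 11, 17 had an end that met that of a protein-coding transcript at a displacement of -109174 bp, the most frequent within 1000000 bp, and 0 had an end that met one at no displacement. The next most frequent displacement, -109172 bp, was met by 6. All 4 assembled transcripts within 1 Mb of the 6 features overlapped 0 exonic bases as listed. Moved by 109174 bp towards higher positions, MSTRG.9534.1 lay over 574 exonic bases of Ap2b1, which is its full transcript length, MSTRG.9473.1 likewise over 582 of Ccl4, and MSTRG.9487.1 over 436 of Wfdc17. The interval of MSTRG.9463.1, with a transcript of 1218 nt, spanned 1257 exonic bases of Ccl9.

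Moved by the same distance, 6 of the 6 features overlapped exons of Schlafen genes, as did some of the neighbouring features described below. The interval of NONMMUT084037.1, of 2107 bases for a transcript of 1201 nt, then spanned 1650 exonic bases of Slfn1, 1011 of them coding. The other 5 lay over Slfn4: NONMMUT084041.1 over 1554 exonic bases (79.9% of its interval), NONMMUT084040.1 over 835 (53.9%), NONMMUT011098.2 over 458 (62.4%), NONMMUT085560.1 over 1554 (33.1%) and NONMMUT011099.2 over 179 (4.86%). NONMMUT085560.1 reached 79 exonic bases of Slfn3 as well. In LPS_PMMA, NONMMUT011099.2 was the least abundant per length and had the smallest exonic share at the displaced position. In LPS_ES_PMMA, NONMMUT084037.1 averaged less (0.387 against 0.416 FPKM). Level and share did not go together throughout. NONMMUT011098.2 had a larger share than NONMMUT084040.1, but averaged 10.4 against 908 FPKM in LPS_PMMA. GRCm39 gene models were not used here.

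The same displacement was applied to the unspliced annotated features of chromosome 11 listed beyond 50 Mb. Of 101 features with at least 50% of their interval in coding-gene exons only when displaced, 30 had a mean FPKM above 10 (29.7%). Of 75 with such an overlap only as listed, 2 did (2.67%), of 11 with such an overlap at both positions, 2 did (18.2%), and of 660 with neither, 26 did (3.94%). The median FPKM of these groups of features was 1.56, 0.645, 0.948 and 0.973. NONMMUT084040.1, NONMMUT084041.1 and NONMMUT011098.2 belong to the first and NONMMUT011099.2 to the last. Whether the reads of the 6 features came from the listed or from the displaced position was not tested on reads.

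**Figure D3:**
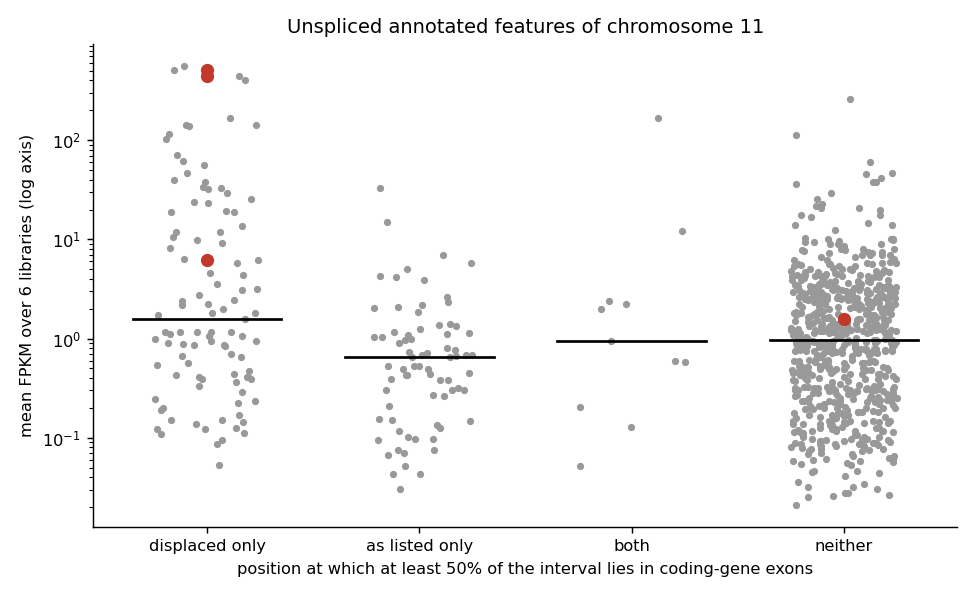
Mean FPKM over 6 libraries (log axis) of unspliced annotated features of chromosome 11 listed beyond 50 Mb, grouped by the position at which at least 50% of the interval lies in exons of coding genes; bars are medians and red points are 4 of the 6 Schlafen features. Above 10 FPKM lie 29.7% of the features that overlap exons only when displaced and 2.67% of those that do so only as listed, beside 18.2% of the 11 that do so at both positions.

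Schlafen genes also resemble one another. Of the 50-base words in Slfn4 transcripts, 8.15% occur in another Schlafen gene, mostly Slfn3, and the figure is 0.606% for Slfn1, 4.27% for Slfn2 and 14.6% for Slfn8. How the authors counted reads that match several genes was not stated, and levels in shared stretches are uncertain to that extent.

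Another 13 features are tied by the table to a Schlafen gene or to Gm11427, a pseudogene beside Slfn3 that was listed with them, or lie within 100 kb of the 6, of which 9 held at least 10 reads and 6 were tested. By edgeR with adjustment over all tested features, 2 of these 6 fell and 4 did not pass, and none was called higher in edgeR, DESeq2 or limma. Of all tested features, 2.58% were called lower and 2.18% higher. At an unadjusted p under 0.05 in edgeR, 2 were lower and 1 was higher, beside 1940 of all 8873 tested features in either direction. The list had a median log2 fold change of -0.41 beside 0.03 for all tested features. The median turns positive on column totals (0.48), on FPKM-implied totals (0.05) and with limma on log2(FPKM + 1) (0.03), where the median of all tested features was higher. The 6 features described above were picked from this neighbourhood for their fall, so nothing is read from how they compare with these.

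NONMMUT011090.2 (82951881 to 82955330), listed over an exon of Slfn5, an interferon-inducible long member, held 8, 9 and 4 reads in the LPS_ES_PMMA libraries, against 83, 79 and 89 in the LPS_PMMA libraries. Its groups did not overlap, and it averaged 2.62 ± 1.71 CPM in LPS_ES_PMMA and 34.7 ± 5.33 CPM in LPS_PMMA. Its log2 fold change was -3.79 (SE 0.44; edgeR adjusted p = 0.00729), and it passed under 5 of 6 omissions of 1 library. MSTRG.9534.1, listed in an intron of the pseudogene Gm11427 and over Ap2b1 when displaced, held 8, 3 and 4 reads in the LPS_ES_PMMA libraries, against 21, 25 and 16 in the LPS_PMMA libraries. Its log2 fold change was -2.36 (SE 0.42; edgeR adjusted p = 0.0242), and it passed under 1 of 6 such omissions, with adjusted p between 0.0109 and 0.111 over all alternatives. Displaced, NONMMUT011090.2 overlaps no exon of the annotation.

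The features nearest to the 6 on the upstream side are both tied to Slfn5 and were too sparse to be tested. NONMMUT011091.2, 46663 bp away, held 5, 1 and 1 reads in the LPS_ES_PMMA libraries, against 2, 7 and 5 in the LPS_PMMA libraries. Slfn5os (ENSMUST00000216469), the antisense RNA of Slfn5, held 5, 3 and 7 reads in the LPS_ES_PMMA libraries, against 36, 20 and 7 in the LPS_PMMA libraries. Its highest LPS_ES_PMMA library (2.36 CPM) lay just below its lowest LPS_PMMA library (2.53 CPM), so the groups barely separated. Fitted without the filter, its log2 fold change was -2.40 (SE 0.68; edgeR adjusted p = 0.178). As listed it overlaps 622 exonic bases of Slfn5, and displaced 554 of Slfn2.

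Inside the interval of the 6, other features moved less or held few reads. NONMMUT084042.1 (83082290 to 83083696), listed just after NONMMUT084041.1 and within the span of NONMMUT085560.1, held 13, 12 and 6 reads in the LPS_ES_PMMA libraries, against 16, 13 and 11 in the LPS_PMMA libraries. It did not pass (log2 fold change -0.63, SE 0.50; edgeR adjusted p = 0.513) and its groups overlapped; displaced, it lies in Slfn3 without reaching an exon. Gm20234 (ENSMUST00000214134), the antisense RNA of Slfn2, had no reads in any LPS_ES_PMMA library, against 3, 1 and 5 in the LPS_PMMA libraries, and with these taken as observed was at least 3.70-fold lower against 3 counts over the group. NONMMUT085561.1, which runs from 83083859 towards Slfn1, held 5, 2 and 2 reads in the LPS_ES_PMMA libraries, against 8, 4 and 0 in the LPS_PMMA libraries. NONMMUT085559.1, in an intron of Slfn2, had 6 reads, all of them in LPS_PMMA 2. Displaced, the intervals of Gm20234 and NONMMUT085559.1 span 1191 and 1105 exonic bases of Slfn4, although both features held few reads.

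On the far side, NONMMUT011100.2 (83120095 to 83120619), listed in an intron of Slfn1, was higher in every LPS_ES_PMMA library, with 27.7, 33.4 and 18.5 CPM there and 13.3, 18.1 and 14.8 CPM in LPS_PMMA. It did not pass (log2 fold change 0.78, SE 0.30; edgeR adjusted p = 0.186), and 16.2% of tested features were higher in every LPS_ES_PMMA library. NONMMUT011101.2, listed at the end of Slfn3, averaged 34.7 ± 13.9 CPM in LPS_ES_PMMA and 39.4 ± 2.09 CPM in LPS_PMMA, and Unc45bos (ENSMUST00000156395) averaged 30.6 ± 2.59 and 32.7 ± 10.5 CPM in these groups. Neither passed (edgeR adjusted p = 0.78 for NONMMUT011101.2 and 0.888 for Unc45bos). Gm48462 (ENSMUST00000213219), 10334 bp beyond the 6, held 1 read in each LPS_ES_PMMA library and in LPS_PMMA 2. The features listed in Slfn1 and at the end of Slfn3 thus did not pass, whereas NONMMUT011090.2, listed in Slfn5, did. The difference between them was not tested. At the displaced position NONMMUT011100.2 overlaps no exon of the annotation, and the interval of NONMMUT011101.2 spans 246 exonic bases of Ap2b1. That of Unc45bos spans 1271 exonic bases of Slfn10-ps and 532 of Gm48434. Whether the reads of these features come from Slfn1 or Slfn3 was not tested.

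**Figure D4:**
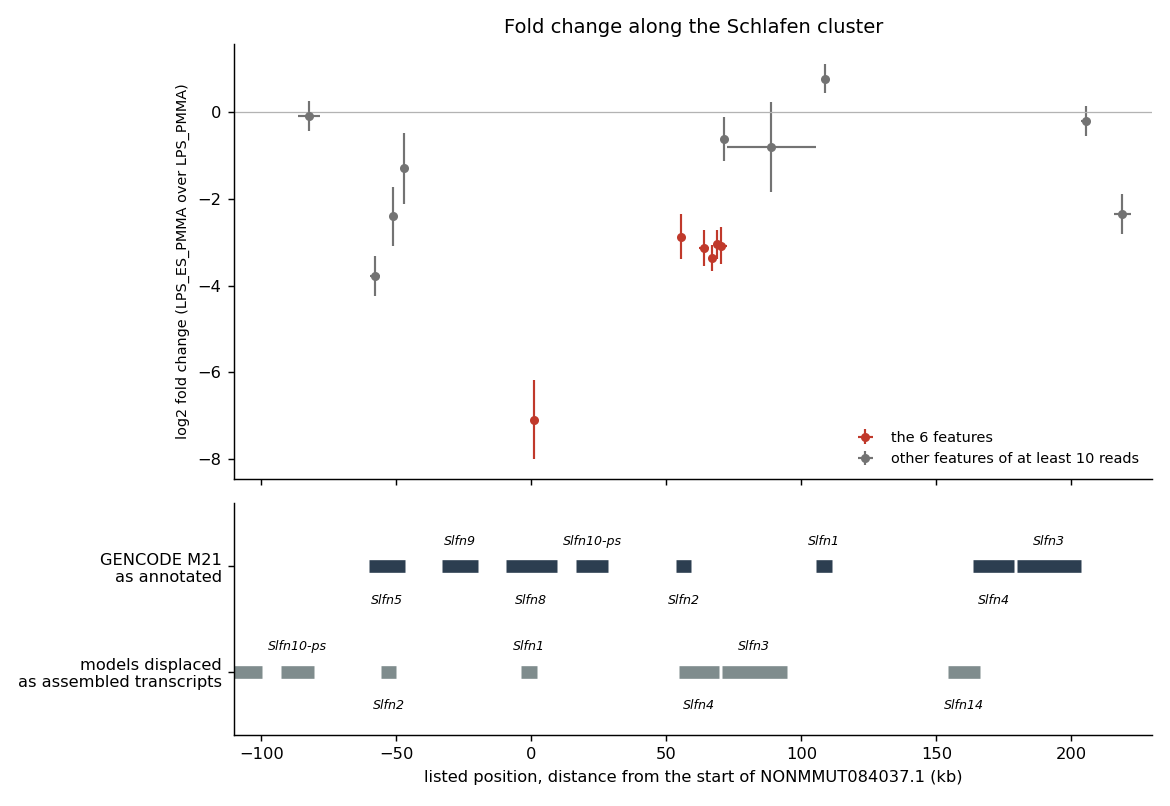
Log2 fold change (LPS_ES_PMMA over LPS_PMMA, fit without the filter, ± SE) of the 6 features (red) and of other Schlafen features of at least 10 reads (grey) by listed position, in kb from the start of NONMMUT084037.1, with horizontal bars for the listed interval; below are the gene models of GENCODE M21 as annotated and moved by -109174 bp. NONMMUT084037.1 lies over Slfn8 as annotated and over Slfn1 as moved, and the other 5 red points lie in or after Slfn2 as annotated. As moved, Slfn4 lies under these points except that of NONMMUT085560.1, which is just past its end and reaches it by its horizontal bar only.

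Features elsewhere with the most similar profile were ranked by Pearson's r of log2(CPM + 1) with the mean of the 6 over the 6 libraries, among 7232 tested annotated features outside the interval. The highest were NONMMUT070820.2 (r = 1.00, listed as intergenic), NONMMUT034596.2 (r = 0.999, tied to Tnks2), NONMMUT135390.1 (r = 0.999, antisense to Als2cl), NONMMUT085775.1 (r = 0.998, in an intron of Dnajc7) and NONMMUT139083.1 (r = 0.997, intergenic). An r of at least 0.95 was reached by 148 features. The measure follows the difference between the groups, which all these points share, and ignores its size. NONMMUT135390.1 held 75, 23 and 59 reads in the LPS_ES_PMMA libraries, against 520, 609 and 468 in the LPS_PMMA libraries (log2 fold change -3.73). NONMMUT070820.2 had a log2 fold change of -1.02.

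Schlafen genes respond to interferon in macrophages, so features tied by the table to other interferon-induced genes were read beside them. These ties rest on the listed positions, which were checked against gene models on chromosome 11 only, so which gene the reads of these features come from was not tested. The filter on low counts kept 10 of the 32 features on this list. Among the 10, edgeR called 5 lower and 1 higher at an adjusted p under 0.05. Of all tested features, 2.58% were called lower and 2.18% higher. The 10 had a median log2 fold change of -1.30, beside 0.03 for all tested features. A feature near 0 in LPS_ES_PMMA can pass this filter by its LPS_PMMA reads alone. Fitted without the filter, 4 of the 32 were called lower and 1 higher, beside 110 and 64 of all 24817 features. Their median log2 fold change was then -0.77, beside 0.15 for all features. NONMMUT034527.2, in the locus of the interferon-induced Ifit genes (tied to Ifit1bl2), held 3, 2 and 2 reads in the LPS_ES_PMMA libraries, against 30, 43 and 48 in the LPS_PMMA libraries, and passed under 6 of 6 omissions of 1 library. NONMMUT105438.1, antisense to the cholesterol 25-hydroxylase gene Ch25h, held 2, 1 and 0 reads in the LPS_ES_PMMA libraries, against 30, 22 and 32 in the LPS_PMMA libraries, and MSTRG.29280.1, tied to Ifit2, held 0, 2 and 0 reads in the LPS_ES_PMMA libraries, against 60, 61 and 40 in the LPS_PMMA libraries. These are the 3 with the smallest p that fell, each with groups that did not overlap, as for 14.6% of all tested features in this direction. All 3 are listed on chromosome 19 between positions 34474809 and 34623494, as is MSTRG.29277.1, which also fell and is also tied to Ifit2. The remaining feature that fell, NONMMUT026433.2, is tied to Parp14 on chromosome 16. The features called lower thus came from few loci. Of the 10 tested, 8 had a log2 fold change below 0. In every LPS_ES_PMMA library 7 were lower and 1 was higher than in any LPS_PMMA library. The feature that rose, NONMMUT150657.1 beside the ISG15 protease gene Usp18, had 21.9, 17.7 and 20.2 CPM in the LPS_ES_PMMA libraries, against 3.44, 5.12 and 5.78 CPM in the LPS_PMMA libraries. Their log2 fold changes were -4.31 (SE 0.37; edgeR adjusted p = 0.00279), -4.96 (SE 0.63; edgeR adjusted p = 0.01), -6.35 (SE 0.82; edgeR adjusted p = 0.0106) and 2.04 (SE 0.30; edgeR adjusted p = 0.0159) for NONMMUT034527.2, NONMMUT105438.1, MSTRG.29280.1 and NONMMUT150657.1. In that order they passed under 6, 5, 3 and 2 of 6 omissions of 1 library.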

How the data were processed

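The deposited table gives, per lncRNA transcript, the authors' whole-number read counts and their FPKM values for 6 libraries, per the file headers, and the authors' own comparison (log2 fold change, p-value and q-value), which per the file's name comes from edgeR. Per the submitters' processing notes the build was mm10. Which aligner and counter were used, and with what strand setting, was not stated. Groups and replicate numbers come from the titles. The 6 features, the gene lists and the rules for named features were chosen with earlier results of these data known.

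Features were kept by filterByExpr (minimum count 10, minimum total 15), scaled by TMM and tested over the whole table by quasi-likelihood in edgeR 4.0.16 under R 4.3.3, with Benjamini-Hochberg adjustment over 8873 features (threshold 0.05, prior count 0.125). Standard errors were computed as the absolute log2 fold change divided by the root of the F statistic. The common biological coefficient of variation was 0.415. Alternatives were other scalings, no filter, DESeq2 1.42.0, robust estimation, limma 3.58.1 on log2(FPKM + 0.1) and log2(FPKM + 1), a replicate block and each library left out. Within a group, chi-square per degree of freedom between pairs of libraries lay between 15.4 and 45.5, so none was a copy of another. Named are the 6 features, other Schlafen features of at least 10 reads, the 3 nearest features on each side, the 5 with the most similar profile and 4 of the interferon list by smallest p. Features were tied to genes by the table's gene identifiers, of which 13687 of 13700 matched GENCODE M21. Floors of 3 counts allow for counting error alone, because reads lacking molecular identifiers may copy 1 molecule.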

Additional observations from a re-analysis of the deposited data

How the results depend on the processing

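The log2 fold changes of the 6 Schlafen features stayed below 0 in all 96 values computed under alternatives, of which 74 moved by less than the spread between replicates and 22 by more. The range was -11.08 to -5.24 for NONMMUT084037.1, where the first value is a fit without LPS_ES_PMMA 3 and depends on the prior count, and -3.49 to -1.40 for the other 5. The sum of the 6 had a log2 ratio of -2.47 on column totals, -2.82 on totals implied by FPKM and -2.93 on column totals without the 5 features of highest mean count, and between -3.37 and -3.11 when 1 library was left out.

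Calls over the table, 422 by the main test, were 174 without the filter on low counts and 50 to 136 when 1 library was left out. Calls lower, 229, were 68 on column totals, 96 on totals implied by FPKM, 90 and 133 with limma on log2(FPKM + 0.1) and log2(FPKM + 1), a scale that understates changes of low features, 110 without the filter and 36 to 92 when 1 library was left out. Calls higher, 193, were 302 on column totals, 248 on totals implied by FPKM, 361 on column totals without the 5 features of highest mean count, 207 and 415 with limma on log2(FPKM + 0.1) and log2(FPKM + 1), 64 without the filter, 10 with the replicate block and 10 to 44 when 1 library was left out. The number of the 6 features called lower was 3 to 5 in fits that left out a library, 5 on column totals and 1 with the replicate block.

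Of the Schlafen features outside the 6, where 2 were called, 1 was called on column totals, on totals implied by FPKM and without the filter, and 0 to 2 when 1 library was left out. The count of 0 was in edgeR without LPS_ES_PMMA 1. There 3 of 7 tested were lower at an unadjusted p under 0.05, a share not counted over all features of that fit. Interferon features called, 6 in the main test, were 1 to 4 when 1 library was left out. The cause of these losses was not tested, beyond that fewer libraries enter such fits. The fold change of Unc45bos (ENSMUST00000156395) turned positive on column totals (0.64), on totals implied by FPKM (0.29), without the 5 features of highest mean count (0.19), with limma (0.40 and 0.37) and without LPS_PMMA 2 (0.10; lowest without 1 library -0.35). That of NONMMUT011101.2 did so on the same scalings (0.71, 0.23 and 0.10), with limma (0.19 and 0.17) and without LPS_ES_PMMA 1 (0.039; lowest without 1 library -0.53), and that of NONMMUT084042.1 on column totals (0.33).

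Libraries of the 2 groups with the same number did not deviate together (correlations of -0.0931 to -0.0196), so the numbers are not taken to pair them. With a replicate block, 41 features were called, 31 of them lower, 1 Schlafen feature outside the 6 and 1 interferon feature. Depth limits the sparse features most: LPS_ES_PMMA 2 held 2 or 3 reads of each.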
